A study of Bos taurus with 8 samples.

Results

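The NEK genes encode the NIMA-related protein kinases, named after the NIMA kinase that the fungus Aspergillus needs to enter mitosis. The family considered here has 10 members, NEK1, NEK2, NEK3, NEK4, NEK5, NEK6, NEK7, NEK8, NEK9 and NEK11, and its probes were found by the gene name in the scanner files. The family was chosen by the NEK6 values against the control arrays, because NEK6 had been among the genes nearest to a call and was lower with both hairpins. All values against the controls are therefore a description with no test. Of the 10 members 9 had at least 1 probe, 19 probes in all, and 6 (NEK2, NEK3, NEK4, NEK6, NEK7 and NEK9, with 13 kept probes) were among the 12889 genes tested. NEK1 had no probe under its name and was not analysed here.

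In vertebrate cells NEK2 acts at the centrosome, where it loosens the protein linker that holds the centriole pairs together before the spindle forms. NEK9 becomes active in mitosis downstream of the kinases CDK1 and PLK1 and switches on NEK6 and NEK7, which help the motor protein KIF11 to separate the spindle poles. Other members work outside the spindle: NEK1 and NEK8 at the primary cilium, NEK11 and NEK1 in the response to DNA damage, and NEK7 in assembly of the NLRP3 inflammasome.

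Transcript levels were measured on 8 one-colour Agilent arrays in primary mammary epithelial cells from the gland tissue of a lactating Holstein cow, used at the fifth passage. The groups were cells with the EEF1D-1357 shRNA (3 arrays), cells with the EEF1D-1893 shRNA (3 arrays) and control cells labelled as without shRNA (2 arrays). An shRNA is a short hairpin RNA that lowers its target mRNA by RNA interference, and EEF1D encodes a subunit of translation elongation factor 1. No array is labelled as carrying a non-targeting shRNA, so carrying any hairpin and losing EEF1D cannot be told apart.

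A level below is the scaled log2 signal, that is the log2 of the processed spot intensity minus the 75th percentile of that quantity on its array, so that 0 is the brightness at the 75th percentile. EEF1D itself, on probe A_73_115715, had levels of 5.98, 5.87 and 5.10 with EEF1D-1357 and 6.0, 5.75 and 5.78 with EEF1D-1893, against 7.13 and 6.15 in the controls. Each shRNA array lay below both controls, and EEF1D-1357 replicate 3 was the lowest. Between 60.6% and 71.5% of probes were well above background per array, 0 spots were saturated, and the 75th percentile lay between 1265 and 2078 intensity units, lowest in control replicate 1. Across genes that array correlated least with the rest (median r = 0.968, while the other arrays had 0.976 to 0.980). The 3 EEF1D-1357 arrays shared slide 1 with control replicate 2, and the 3 EEF1D-1893 arrays shared slide 2 with control replicate 1. All 7 epithelial markers were measured, while the endothelial markers PECAM1, KDR and TEK and the T cell marker CD3E were not well above background on any array. The number of arrays limits the precision, and since the labels do not say that replicates came from separate cultures, p-values cover no more than the spread among these arrays.

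The probes behind the results are shown because the NEK6 and NEK2 findings each rest on a pair of probes, and because NEK3 and NEK4 gave different values on different probes. Positions are those of the scanner files, in build Btau_3.1. Of both NEK6 probes and the second NEK2 probe only 30 bases are given. In the brighter NEK6 probe, bases 30 to 59 are printed, with the polyadenylation signal letters AATAAA in capitals, and in the NEK3 probe the capitals mark the codons of the DFG motif, whose aspartate binds magnesium in the active site of protein kinases.
NEK6 A_73_P050561, chr11:98623373-98623432, plus strand: ctccatggttgaAATAAAatgggtaagagg
NEK6 A_73_P498473, chr11:98622400-98622459, plus strand, first 30 bases: gactctgatttgtagtgagcctttttaaat
NEK2 A_73_P426281, unplaced contig, bases 69486 to 69545, minus strand: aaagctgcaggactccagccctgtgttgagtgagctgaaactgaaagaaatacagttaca
NEK2 A_73_P040781, the same contig, bases 67360 to 67419, minus strand, first 30 bases: gcccgatccggttgcatgtatatgtcaaag
NEK7 A_73_P072531, chr16:75552848-75552907, plus strand: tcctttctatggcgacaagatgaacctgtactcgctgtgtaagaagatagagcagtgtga
NEK9 A_73_117971, chr10:88803341-88803400, minus strand: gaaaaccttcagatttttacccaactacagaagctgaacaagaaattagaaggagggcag
NEK3 A_73_119175, chr12:20982889-20982948, minus strand: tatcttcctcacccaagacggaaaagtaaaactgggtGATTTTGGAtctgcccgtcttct
NEK4 A_73_P328916, chr22:49186875-49186934, plus strand: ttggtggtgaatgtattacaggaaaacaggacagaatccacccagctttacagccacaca

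Of the 19 member probes 1, the brighter NEK6 probe, holds the letters AATAAA on the probe strand, and 9.35% of all 43653 probes on the array do. At least 1 of the 3 sense frames was free of stop codons in 17 of the 19 member probes and in 85.6% of all probes. Both are descriptions of the letters. Whether a member's probe also binds the RNA of a related NEK gene was not tested.

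NEK6, the kinase downstream of NEK9, was the member with the clearest separation of groups. On its brighter probe the levels were 1.87, 1.89 and 1.75 with EEF1D-1357 and 2.09, 2.39 and 2.24 with EEF1D-1893, against 3.23 and 3.34 in the controls. The 3 groups did not overlap: EEF1D-1357 was lowest, EEF1D-1893 lay above it, and the controls were highest. EEF1D-1357 arrays averaged 1.84 ± 0.07 (SD, n = 3), EEF1D-1893 arrays averaged 2.24 ± 0.15 (n = 3) and control arrays averaged 3.28 ± 0.08 (n = 2). For both shRNAs together the log2 fold change against control was -1.24 (SE 0.13), which is 42.2% of the control signal. It was -1.45 (SE 0.15) with EEF1D-1357 and -1.04 (SE 0.15) with EEF1D-1893, 2 values that share the same control arrays. In RNA from whole cultures, fewer cells that express NEK6 and less NEK6 RNA per cell cannot be told apart.

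The dimmer NEK6 probe lies 5′ of the brighter one, starting at base 1472 of the transcript instead of 2445. Its levels were -2.24, -2.14 and -2.33 with EEF1D-1357 and -2.14, -1.55 and -2.18 with EEF1D-1893, against -1.18 and -0.81 in the controls. Again each shRNA array lay below both controls, while the hairpin groups overlapped and EEF1D-1893 replicate 2 was the highest of the 6. Against control this probe had a log2 fold change of -1.10 (SE 0.20) for both shRNAs. On the brighter probe the difference was present on each slide, at -1.50 for EEF1D-1357 against the control on slide 1 and -0.99 for EEF1D-1893 against the control on slide 2. Leaving out 1 array at a time gave values for both shRNAs between -1.30 and -1.19.

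Summed levels of the epithelial markers were also below both controls on each of the 6 shRNA arrays, and overlapped between the hairpins. In multiples of the array's 75th percentile the 7 markers summed to 537 to 584 with EEF1D-1357 and 546 to 629 with EEF1D-1893. The sum was 1032 in control replicate 1 and 677 in control replicate 2. Against the control of the same slide, KRT8, KRT18, KRT19 and KRT5 stood at -0.12 to -0.02 on slide 1 and -2.34 to -0.51 on slide 2. On slides 1 and 2 KRT14 stood at -2.40 and -1.98, EPCAM at -0.39 and 0.26, and CDH1 at 0.12 and 0.22. The 7 fibroblast markers summed to 108 to 149 with EEF1D-1357 and 127 to 156 with EEF1D-1893, against 117 to 232 in the controls, and overlapped. Nearly all of this sum is VIM, which averaged 6.91 with EEF1D-1357, 7.13 with EEF1D-1893 and 7.34 in the controls. Each other fibroblast marker averaged below 0 in every group. The median log2 deviation of the 7 markers from each gene's mean of the 8 arrays was -0.42 to -0.24 with EEF1D-1357. It was 0.00 to 0.24 with EEF1D-1893 and -0.12 to 0.34 in the controls. Between the hairpins 7 of 7 fibroblast markers were below 0, where 58.6% of all genes were. With each hairpin set against the control of its own slide, 3 of 7 were below 0. The largest differences between the hairpins were those of COL1A2, at -4.34 (SE 1.88), and LUM, at -1.84 (SE 1.63). Both genes were well above background on at most 4 arrays. The part of either marker list in the NEK6 values was not tested.

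**Figure D1:**
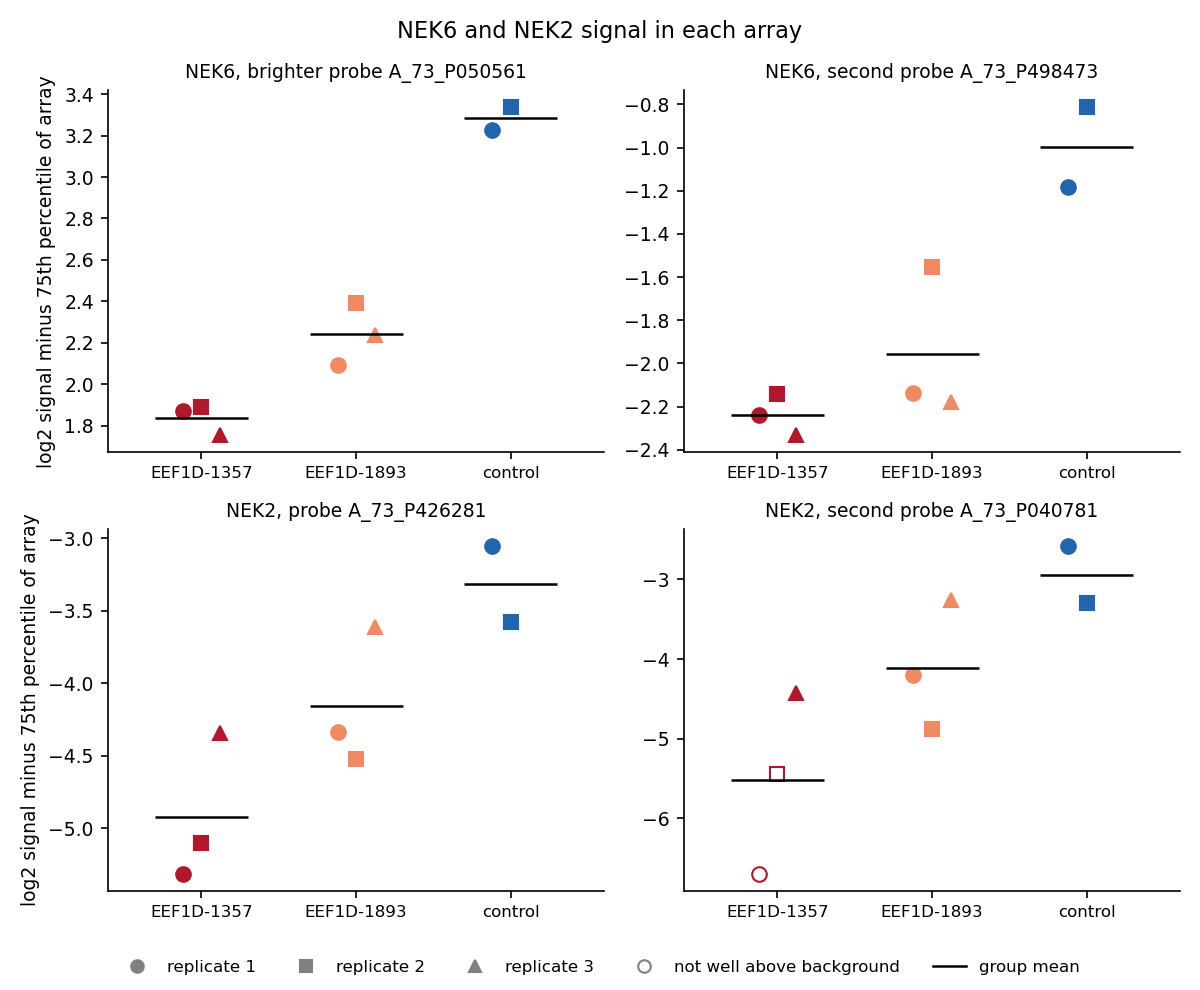
Scaled log2 signal (vertical axis, log2 units relative to the 75th percentile of the array) of both NEK6 probes and both NEK2 probes in each array, with the group mean as a line and open symbols where the spot was not well above background. On both NEK6 probes all 6 shRNA arrays lie below both controls, and on the second NEK2 probe EEF1D-1893 replicate 3 (-3.26) lies just above control replicate 2 (-3.30).

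NEK2, the centrosome kinase, also had lower values with both hairpins, but with a wide spread. On probe A_73_P426281 the levels were -5.32, -5.10 and -4.34 with EEF1D-1357 and -4.33, -4.52 and -3.61 with EEF1D-1893, against -3.05 and -3.57 in the controls. All shRNA arrays lay below both controls, narrowly so for EEF1D-1893 replicate 3, and the hairpin groups just overlapped. For both shRNAs together the log2 fold change against control was -1.23 (SE 0.34), which is 42.7% of control, with -1.61 (SE 0.38) for EEF1D-1357 and -0.85 (SE 0.38) for EEF1D-1893. The probe is dim, at 51.6 to 160 intensity units, and with normexp background correction and quantile normalization the value for both shRNAs was -0.60.

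The second NEK2 probe, A_73_P040781, had levels of -6.71, -5.44 and -4.43 with EEF1D-1357 and -4.20, -4.88 and -3.26 with EEF1D-1893, against -2.57 and -3.30 in the controls. The lowest arrays, EEF1D-1357 replicates 1 and 2, did not have this spot well above background. EEF1D-1893 replicate 3 lay above control replicate 2. Against control its fitted log2 fold change was -1.88 (SE 0.63) for both shRNAs. Within slides the first probe stood at -1.35 on slide 1 and -1.11 on slide 2.

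NEK2 and the other mitotic genes were low on the same arrays. The median over 12 measured genes of a list of 14 mitosis genes, as the log2 deviation from each gene's mean of the 8 arrays, was -1.61, -0.94 and 0.42 with EEF1D-1357 and -0.06, -0.12 and 0.82 with EEF1D-1893, against 0.92 and 0.46 in the controls. The arrays with the lowest NEK2 levels, EEF1D-1357 replicates 1 and 2, were also those with the lowest mitosis median, and replicate 3 was the highest of each hairpin group in both measures. The part of the mitosis list in the NEK2 or NEK6 values was not tested.

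**Figure D2:**
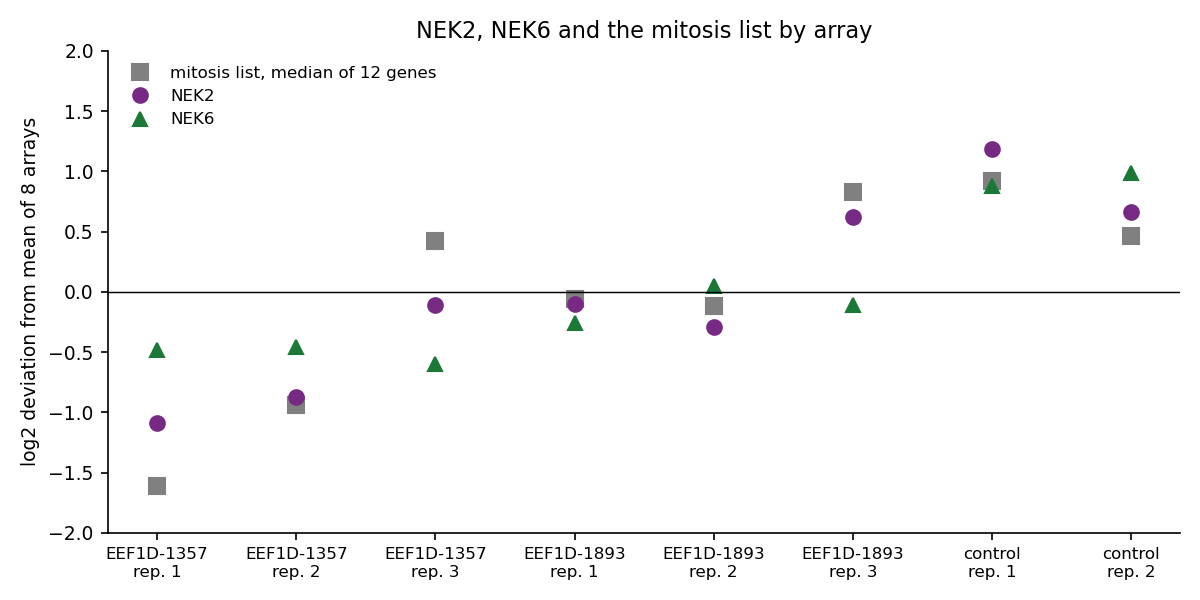
Log2 deviation from the mean of the 8 arrays (vertical axis) for NEK2, NEK6 (brightest probe of each) and the median of 12 mitosis genes, by array. NEK2 and the mitosis median are both lowest in EEF1D-1357 replicates 1 and 2, and NEK6 lies below both controls on all 6 shRNA arrays.

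The genes whose levels followed NEK6 and NEK2 most closely over the 8 arrays were taken from 10898 genes well above background on every array. For NEK6 these were ERAS, a Ras-like GTPase (r = 0.987), TEP1, a telomerase-associated protein (r = 0.984), HKDC1, a hexokinase-like protein (r = 0.981), NSMCE1, a subunit of the SMC5/6 complex (r = 0.966), and NCBP3, a cap-binding protein (r = 0.960). For NEK2 they were FANCG of the Fanconi anaemia pathway (r = 0.994), the replication factor CDC45 (r = 0.989), the strand break repair protein XRCC1 (r = 0.988), the histone chaperone NASP (r = 0.988) and the chromosome motor KIF22 (r = 0.988). These are the highest of many correlations over arrays that share groups, and they are given as a description. The correlation of NEK6 with NEK2 was 0.784.

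The remaining mitotic members did not separate the groups. NEK9, which activates NEK6 and NEK7, had levels of -3.48, -3.42 and -3.50 with EEF1D-1357 and -3.37, -3.56 and -3.46 with EEF1D-1893, against -3.49 and -3.39 in the controls. All 3 groups overlapped, and against control both shRNAs had a log2 fold change of -0.03 (SE 0.12). NEK7, the close relative of NEK6, had levels of -4.52, -4.83 and -5.53 with EEF1D-1357 and -4.82, -5.05 and -5.29 with EEF1D-1893, against -5.59 and -5.20 in the controls. Its probe was dim, at 26.3 to 89.9 intensity units, and EEF1D-1357 replicate 3, where it was not well above background, lay below control replicate 2. The groups overlapped, with a log2 fold change of 0.39 (SE 0.28), above 0 where NEK6 and NEK2 were below.

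NEK3, which in human breast cells binds VAV proteins downstream of the prolactin receptor, had 2 kept probes. On the brighter probe, A_73_103773 at chr12:20962277-20962336, the levels were 0.14, -0.00 and 0.24 with EEF1D-1357 and 0.20, 0.35 and 0.02 with EEF1D-1893, against -0.29 and 0.19 in the controls. The controls lay far apart and all groups overlapped. Both shRNAs against control gave a log2 fold change of 0.21 (SE 0.17), and it was -0.03 without control replicate 1 and 0.44 without control replicate 2. The other probe, which covers the DFG codons, had levels of -4.86, -5.04 and -4.63 with EEF1D-1357 and -4.35, -4.41 and -4.46 with EEF1D-1893, against -4.27 and -4.68 in the controls. There the EEF1D-1357 arrays lay below all EEF1D-1893 arrays and overlapped the controls.

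NEK4, linked to cilia and to DNA damage in human cells, had 5 kept probes. The brightest, A_73_P347551 at chr22:49198119-49198178, had levels of -0.81, -0.86 and -0.79 with EEF1D-1357 and -0.88, -0.77 and -0.84 with EEF1D-1893, against -0.71 and -0.85 in the controls. The groups overlapped, and against control both shRNAs had a log2 fold change of -0.04 (SE 0.11). On probe A_73_P328916, shown above, the levels were -4.90, -4.95 and -4.86 with EEF1D-1357 and -5.20, -5.18 and -5.50 with EEF1D-1893, against -4.54 and -4.80 in the controls. On this dim probe all 6 shRNA arrays lay below both controls, with a log2 fold change of -0.43 (SE 0.14), and here EEF1D-1893 was the lower hairpin. In EEF1D-1893 replicate 1 this probe was not well above background. The other 3 NEK4 probes stood at -0.18, -0.05 and 0.11, and over the 6 shRNA arrays they overlapped the controls. On the first of these, A_73_P351686, the 3 EEF1D-1893 arrays lay below both controls.

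**Figure D3:**
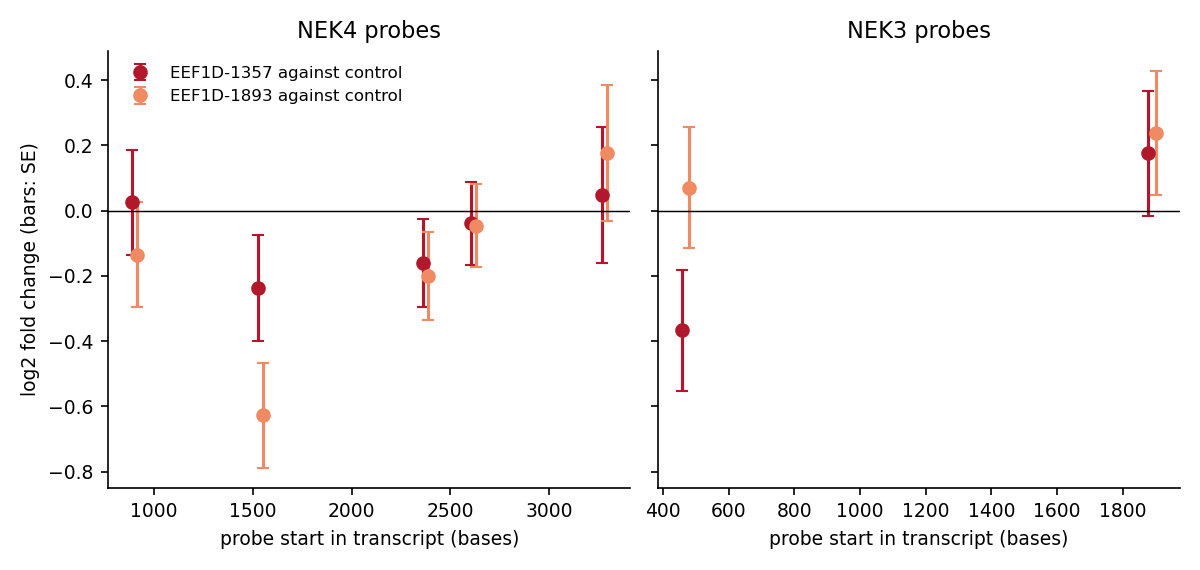
Log2 fold change against control (vertical axis, bars are the SE of the fit) of each kept NEK4 and NEK3 probe by its start in the transcript (horizontal axis, bases). For NEK4 the probe at base 1541 stands apart at -0.24 with EEF1D-1357 and -0.63 with EEF1D-1893, and the NEK3 probes at bases 468 and 1890 differ with EEF1D-1357, at -0.37 and 0.18.

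NEK5, NEK8 and NEK11 could not be compared. The single NEK5 probe was not well above background on any array, and of the 3 NEK8 probes 1 was well above background on 1 array, control replicate 1. NEK11, the checkpoint member, had 2 probes. Probe A_73_P096986 (chr1:140994828-140994887) was well above background in EEF1D-1357 replicate 3 alone, at 206 intensity units, and its other arrays lay between 9.38 and 35.7 units. No fold is given for these 3 genes, since the bound on it was under 1 wherever it could be set. NEK10, the family gene outside the 10 members, has 1 probe that was not well above background on any array.

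Taken over the 6 tested genes, 2 had all 6 shRNA arrays below both controls on their brightest probe (NEK6 and NEK2), where 9.05% of all tested genes did. For both shRNAs against control 4 of 6 had a log2 fold change below 0, where 57.2% of all genes were below 0. The median of the 6 was -0.03, beside -0.07 over all genes. No gene on the array was called against the controls at an adjusted p under 0.05 (0% of 12889 for both shRNAs, for EEF1D-1357 and for EEF1D-1893, by limma with Benjamini-Hochberg adjustment). At an unadjusted p under 0.05 there were 2163, 2073 and 1798 genes. Since these contrasts chose the family, the member counts carry no further reading.

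**Figure D4:**
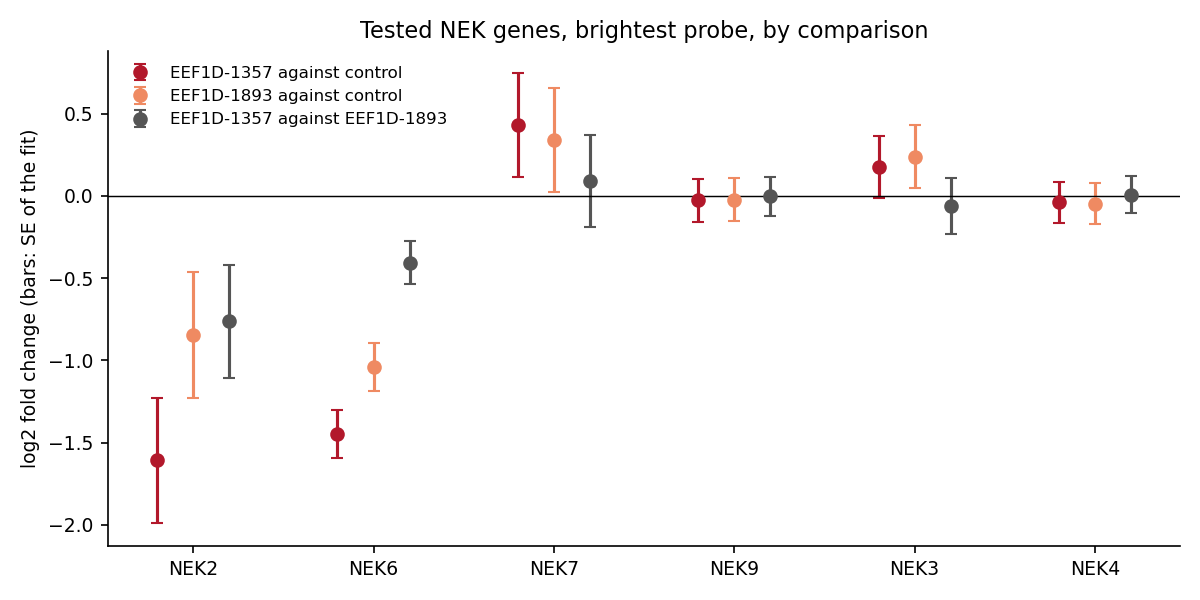
Log2 fold change (vertical axis, bars are the SE of the fit) of the brightest probe of each of the 6 tested NEK genes in 3 comparisons. NEK2 and NEK6 lie below 0 in all 3, NEK7 lies above 0 with wide bars, and NEK9, NEK3 and NEK4 lie within 0.24 of 0.

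The comparison of EEF1D-1357 with EEF1D-1893 contains no control array and was the tested one. It asks whether the hairpins against the same target leave different NEK levels, and a value between the hairpins is the log2 fold change of EEF1D-1357 over EEF1D-1893. No member was called among the 6 (0% of all 12889 genes were called), by limma with Benjamini-Hochberg adjustment over all genes. At an unadjusted p under 0.05 there was 1 member, NEK6, where 6.42% of all genes passed. This comparison shares its shRNA arrays and its estimate of spread with the values against control on which NEK6 was chosen. The p of NEK6 is therefore not free of that choice. Its SE of 0.13 compares with a median SE of 0.21 over all genes. NEK6 stood at -0.41 (SE 0.13, 95% interval -0.71 to -0.10, limma adjusted p = 0.745), lower in 3 of 3 EEF1D-1357 arrays than in any EEF1D-1893 array. It was the only one of the 6 with such a separation on the brightest probe, where 15.0% of all genes had it. Its adjusted p ranged from 0.0626 with array weights to 1.00 over the alternatives. The dimmer NEK6 probe stood at -0.28 (SE 0.20, limma adjusted p = 0.785).

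NEK2 stood at -0.76 between the hairpins (SE 0.34, 95% interval -1.57 to 0.04, limma adjusted p = 0.745), and its second probe at -1.41 (SE 0.63, limma adjusted p = 0.773). NEK3 stood at -0.06 (interval -0.47 to 0.34), NEK4 at 0.01 (-0.26 to 0.27), NEK9 at -0.00 (-0.28 to 0.27) and NEK7 at 0.09 (-0.57 to 0.75). These intervals leave room for differences of that size, so equal levels are not shown. The probe of NEK3 over the DFG codons stood at -0.44 and the NEK4 probe A_73_P328916 at 0.39, both at limma adjusted p = 0.773. Over the 6 genes 4 were below 0, where 58.6% of all genes were, with a median of -0.03 beside -0.05 over all genes.

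Each hairpin lay on a slide of its own, so hairpin and slide can be separated only through the single control on each slide. With slide as a block, NEK6 stood at -0.52 between the hairpins (limma adjusted p = 0.208), NEK2 at -0.24 (adjusted p = 0.859), NEK3 at -0.54 (adjusted p = 0.233), and NEK7 turned to -0.30 (adjusted p = 0.779).

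Genes that work with the NEK kinases were read from 6 lists. Their values between the hairpins were also taken with each hairpin set against the single control of its own slide, a choice made after the data were seen that gives a value with no test. Between the hairpins 0 of their genes were called in either direction by limma, and 0% of all genes were. At an unadjusted p under 0.05 there were 3: ANKS6 of 8 cilium, ATRIP of 7 checkpoint and IL18 of 5 inflammasome genes. It was 0 of the 12 spindle, 8 linker and 12 mitosis genes. Of all genes 6.42% had an unadjusted p under 0.05 between the hairpins. Below 0 were 58.6% of all genes between the hairpins and 57.2% for both shRNAs against control. In the list of the NEK9, NEK6 and NEK7 spindle module 12 of 12 genes were measured. Their median for EEF1D-1357 against EEF1D-1893 was -0.39, where all genes had -0.05, and 9 of 12 were below 0. By array the list's median log2 deviation was -0.46, -0.52 and 0.27 with EEF1D-1357 and -0.06, 0.01 and 0.37 with EEF1D-1893. The hairpin groups overlapped, since EEF1D-1357 replicate 3 lay above EEF1D-1893 replicates 1 and 2. The NEK6 substrate KIF11, a spindle pole motor, stood at -0.87 (SE 0.44), the microtubule-binding protein EML3 at 0.33 (SE 0.18), gamma-tubulin TUBG1 at -0.47 (SE 0.27) and the kinase AURKA at -0.89 (SE 0.52). None of these 4 passed (limma adjusted p between 0.745 and 0.746). Through the slides' controls the list median was -0.21 with 8 of 12 below 0, KIF11 stood at -1.38, EML3 at 0.73 and AURKA at -0.42, and TUBG1 turned to 0.33. Against the controls the same list had a median of -0.34 for both shRNAs, with 9 of 12 below 0. Within it PLK1, which acts upstream of NEK9, stood at -0.94 (SE 0.50), and NEDD1, which brings gamma-tubulin to the spindle, stood at 0.87 (SE 0.26), the opposite direction to NEK6.

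Of the centrosome linker of NEK2 and its regulators 8 of 9 genes were measured, with a median of -0.01 between the hairpins and 5 of 8 below 0. The phosphatase subunit PPP1CC, which opposes NEK2, stood at -0.33 and the kinase STK3 at 0.17. The linker protein CEP68 stood at -0.18 and the scaffold SAV1 at 0.15. Through the slides' controls the median moved to 0.50 with 3 of 8 below 0, STK3 turned to -0.09 and CEP68 to 0.59, PPP1CC stood at -0.80 and SAV1 at 0.61. The list includes CEP250, at 1.06 through the slides' controls, which was well above background on at most 3 arrays. Against the controls the median was -0.19 with 6 of 8 below 0, and rootletin (CROCC), a linker protein that NEK2 phosphorylates, stood at -0.65 (SE 0.20). The mitosis list, in which 12 of 14 genes were measured, had a median of -0.95 between the hairpins with all 12 below 0, among them the cyclins CCNB2 at -1.02 (SE 0.49) and CCNB1 at -1.17 (SE 0.59), ANLN at -0.91 and BUB1B at -0.94. None of these 4 passed (limma adjusted p = 0.745 for each). Through the slides' controls the mitosis median was -0.49 with 11 of 12 below 0, the exception being AURKB at 0.02. There CCNB2 stood at -0.25, CCNB1 at -0.41, ANLN at -0.44 and BUB1B at -0.69.

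For the cilium partners of NEK1 and NEK8, 8 of 9 genes were measured. Their median between the hairpins was -0.12 with 6 of 8 below 0, led by ANKS6, a NEK8-binding protein, at -0.78 (SE 0.30, limma adjusted p = 0.745), which was well above background on at most 5 arrays. CFAP410 stood at -0.25 and NPHP4 at -0.20. Through the slides' controls the median was -0.30 with 7 of 8 below 0, ANKS6 stood at -0.93 and NPHP4 at -0.16, and CFAP410 turned to 0.67. Against the controls the median was -0.16. The checkpoint module of NEK11 and NEK1 had all 7 genes measured, with a median of -0.30 between the hairpins and 6 of 7 below 0. In it ATRIP, the partner of the damage kinase ATR, stood at -0.49 (SE 0.19), the checkpoint kinase CHEK2 at -0.65 (SE 0.33), BTRC at 0.19 and CHEK1 at -0.30. Through the slides' controls the median was 0.02 with 3 of 7 below 0, ATRIP stood at -0.73, and CHEK2 turned to 0.23, BTRC to -0.08 and CHEK1 to 0.02. Against the controls ATRIP stood at -1.06 (SE 0.19) and CHEK2 at -0.85 (SE 0.33), and the list median was -0.31.

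The inflammasome module of NEK7 had values above 0 between the hairpins, none of them called. Of its 6 genes 5 were measured, and NLRP3, the sensor that NEK7 binds, was not well above background on any array. Between EEF1D-1357 and EEF1D-1893 the median was 0.54 and 0 of 5 were below 0. The count includes the protease CASP1, at 0.27 (SE 1.03), which was well above background on at most 2 arrays. The cytokine IL18 stood at 1.14 (SE 0.29, limma adjusted p = 0.745), IL1B at 0.74 (SE 0.32), the pore protein GSDMD at 0.54 (SE 0.32) and the adaptor PYCARD at 0.25 (SE 0.26). Through the slides' controls the median was 0.93 with 0 of 5 below 0, and PYCARD stood at 0.16. Against the controls the list median was 0.49 for EEF1D-1357 with 0 of 5 below 0, -0.01 for EEF1D-1893 with 3 of 5 below 0, and 0.12 for both shRNAs. The summed level of the 5 genes was 16.6 to 18.9 times the array's 75th percentile with EEF1D-1357 and 10.2 to 11.7 times with EEF1D-1893. It was 9.59 to 9.95 times in the controls. This sum weighs bright genes most, and IL18 averaged 3.11 with EEF1D-1357, 1.97 with EEF1D-1893 and 1.86 in the controls. The list's median log2 deviation overlapped between all 3 groups. It was 0.10 to 0.74 with EEF1D-1357, -0.67 to 0.12 with EEF1D-1893 and -0.46 to 0.20 in the controls. NEK7 itself did not separate these groups.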

How the data were processed

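Per the file headers, the deposited scanner values are Cy3 spot intensity from Agilent Feature Extraction 10.7.3.1 (the submitters' processing notes name 9.1), background-subtracted and not normalized between arrays, with 0 or 1 flags per spot. A deposited series table, used as an alternative source, gives log2 values with a median of 7.55 on each array. From the log2 processed intensity of each array its own 75th percentile was subtracted. Of 43653 probes 238 were left out as outliers and 30702 were well above background on at least 2 arrays; the brightest probe stood for a gene, which gave 12889 genes. Genes were named with RefSeq's ARS-UCD2.0 table, used for names alone. With limma 3.58.1 (R 4.3.3) all 8 arrays entered one fit of 3 group means (two-sided, Benjamini-Hochberg over all genes, threshold 0.05, 5 residual degrees of freedom). The same fitting code was separately run on simulated data, and the outcome is not reported here. All 10 members and their probes were named, up to 4 genes of each list by smallest p between the hairpins, the 5 genes most correlated with NEK6 and with NEK2, and EEF1D. One gene that this rule names is not reported here. AURKB, CASP1, CEP250, CROCC, PLK1 and NEDD1 were added after their values were seen. The members and lists were chosen with earlier results of these data known. Alternatives changed the scaling, background correction, filter, probe choice, source table, fit, block and arrays left out.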

Additional observations from a re-analysis of the deposited data

How the results depend on the processing

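No member was called between EEF1D-1357 and EEF1D-1893 (0 of 6) under any of 21 alternatives. NEK6 kept its direction against control and between the hairpins under every alternative, at -1.30 to -1.15 for both shRNAs against control over 20 alternatives and -0.52 to -0.33 between the hairpins over 21. The family median for both shRNAs against control was 0.045 with scaling by the median, 0.02 with quantile normalization and -0.07 with the mean of a gene's kept probes. Between the hairpins it was -0.13 with the mean of the kept probes, -0.27 with slide as a block and 0.04 with median scaling. For these the cause was not tested. The share of all genes below 0 for both shRNAs against control was 57.2% in the main scaling and 48.7% with median scaling. Leaving out 1 array at a time gave family medians from -0.05 to -0.03 against control and from -0.10 to -0.01 between the hairpins. NEK2 against control ranged from -1.55 to -0.60 and NEK3 from -0.03 to 0.44.

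Counts of called genes moved with the controls. For both shRNAs against control, EEF1D-1357 and EEF1D-1893 they were 27, 29 and 26 without control replicate 1, and 2968, 2978 and 1865 without control replicate 2, where the single control left is taken to vary as the hairpin groups do. With slide as a block they were 703, 29 and 1865, and 6 between the hairpins. A prior with trend and a robust fit gave 2 for both shRNAs and 2 for EEF1D-1357, the filter on all 8 arrays gave 3 for EEF1D-1357, and between the hairpins normexp and array weights gave 1 each.

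Deviations of same-numbered arrays correlated at -0.10 for replicate 2 of the hairpins and at 0.08 to 0.14 otherwise. Those of differently numbered arrays in different groups correlated between -0.14 and 0.06. With only 2 controls, their deviations are equal and opposite. Each correlation with control replicate 1 is therefore the negative of that with control replicate 2, and these values cannot show a pairing with the controls. Whether replicate numbers pair the samples was not tested. With the replicate block 0 members were called between the hairpins, where NEK6 stood at -0.41 and NEK2 at -0.76 (limma adjusted p = 0.550 for each). The family medians were -0.03 in both comparisons, and NEK6 for both shRNAs against control stood at -1.22. NEK7, NEK2's second probe and NEK4 probe A_73_P328916 are limited by signal near background.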

Other observations

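Among the members, NEK7 and NEK2 ran opposite to each other over the 8 arrays (r = -0.799), and so did NEK9 and NEK4 (r = -0.786), out of 15 pairs that share arrays and groups. NEK7 was dim, and over the 8 arrays NEK9 lay between -3.56 and -3.37 and NEK4 between -0.88 and -0.71, so these correlations are descriptions only.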
